A study of Saccharomyces cerevisiae with 16 samples.

Results

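Newly made mRNA of a budding yeast strain that carries a tagged Mot1 was compared with that of its untagged parent before any rapamycin was added. The comparison uses the 4 of 16 arrays taken at 0 min: Mot1-aa 0 min, with 2 cultures, and WT-aa 0 min, with 2 cultures. Both strains are By4742-aa derivatives. They share the tor1-1 allele, the fpr1 deletion, RPL13A-FKBP12-NAT and MET15, the his3-1, leu2, lys2 and ura3 markers and the matalpha mating type. Mot1-aa differs in having Mot1-FRB-yEGFP-3V5, that is, Mot1 fused to the rapamycin-binding domain FRB, a green fluorescent protein and the V5 epitope. The growth medium was synthetic complete with 2% glucose, and 5 mM 4-thiouracil (4tU) was present for the last 6 min before harvest. The labelled RNA was purified, so that the arrays report mainly RNA made in that window. Each array carried the RNA of 1 culture in one dye and a pool of 4tU-labelled RNA from 3 WT-aa cultures in the other, and the dyes were swapped between culture 1 and culture 2. That make-up of the pool is given by the study's design text, whereas the sample titles also carry Mot1 in the pool's name, so that it is not settled whether the pool holds WT-aa RNA alone. Values are log2(sample/reference pool), so 1 unit is a 2-fold ratio. The rest of the series followed both strains at 10, 20 and 30 min of 7.5 µM rapamycin. The labels do not say how many independent transformants of the tagged strain were used.

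Mot1 is an ATP-driven enzyme of the Swi2/Snf2 family that lifts the TATA-binding protein off its DNA sites. It can lower transcription at promoters from which it takes that protein and can help at others, where the protein released is used again. In the anchor-away method, rapamycin bridges FRB on the target and FKBP12 on a ribosomal protein, and the target leaves the nucleus with the ribosomal subunit. The tor1-1 allele and the loss of FPR1 make the strains insensitive to the drug itself. Without rapamycin no such bridge is formed, so that the 0 min comparison is one between the strains and their cultures.

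At 0 min, 143 of 5315 named genes (2.69%) differed between the strains at an adjusted p under 0.05 (limma on all 16 arrays with dye orientation as a term, Benjamini-Hochberg adjustment). Of these, 98 were higher in Mot1-aa (1.84% of genes) and 45 were lower (0.847%). Most differences were small: the median was 0.56 among the higher genes and -0.49 among the lower ones on the log2 scale, and 12 higher and 4 lower genes passed 2-fold. The arrays of the 2 strains did not overlap for 95 of the 98 higher genes and for all 45 lower genes, where 14.2% of all genes had both Mot1-aa arrays above both WT-aa arrays and 15.3% had both below. The exceptions were ASH1, CDC6 and TIP20, the last named after its values were seen. All 143 genes were above the negative spots on the 4 arrays and none was saturated. At an unadjusted p under 0.05, 778 of the 5315 genes differed at 0 min (limma), the background for such counts below. The data come from whole cultures, so that fewer cells making an RNA and less of it per cell cannot be told apart.

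**Figure D1:**
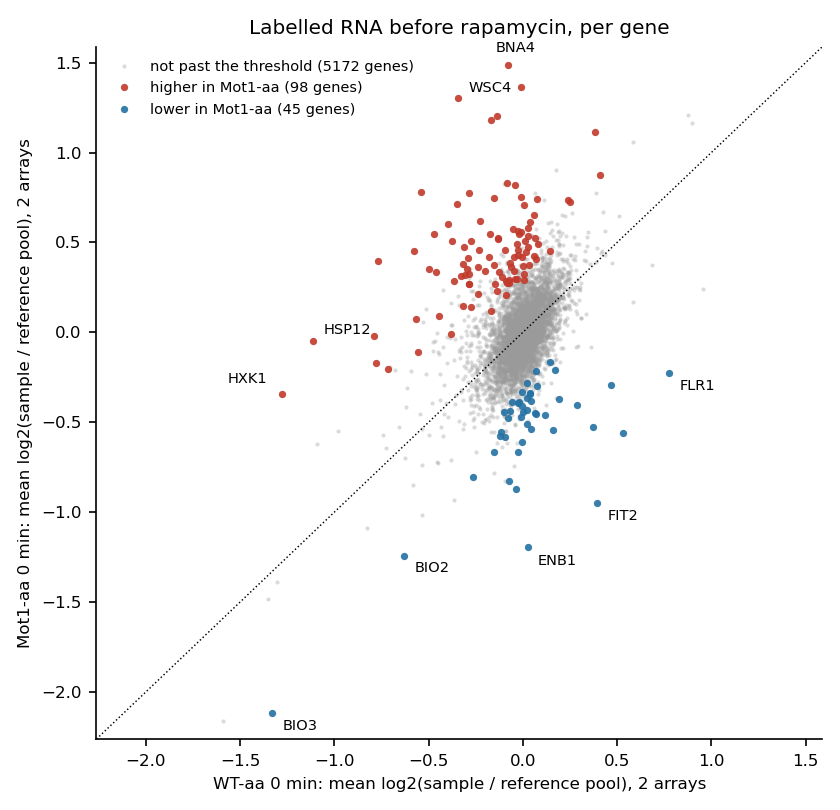
Mean log2(sample/reference pool) at 0 min of each of 5315 genes, in WT-aa (horizontal, 2 arrays) and in Mot1-aa (vertical, 2 arrays). Most genes lie near the dotted line of equal values, the 98 genes higher in Mot1-aa (red) lie above it and the 45 lower genes (blue) below it.

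The number of arrays limits the precision of this comparison. Mot1-aa culture 1 stood apart: it had a median sample signal of 11.6 times the local background, whereas the other 15 arrays had 22.4 to 32.2 times. Across genes, the strain difference of culture 1 and that of culture 2 correlated at r = 0.26, a value over genes that share the arrays. Without Mot1-aa culture 1, 48 genes passed, and without WT-aa culture 1, 67 passed. The test borrows its spread from all 8 groups: with either WT-aa 10 min array left out 93 genes passed, and with either Mot1-aa 10 min array left out 425 did. In a fit of the 4 arrays alone, which leaves 1 degree of freedom, limma called 0 genes, with a lowest adjusted p of 0.081 and 493 genes at an unadjusted p under 0.05. Whichever single array was left out, 32 of the higher and 9 of the lower genes still passed. Differences are relative to the typical gene, whose median difference was -0.01. Scaling on the external control spots, whose signal was only 1.15 to 1.50 times background, moved that median to -0.61, and then 43 of the 98 higher genes stayed above 0 while all 98 stayed above the median of all genes.

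The tagged locus itself is described first. MOT1 (YPL082C, chromosome XVI) read -0.18 and -1.31 on the Mot1-aa arrays and -0.01 and -0.09 on the WT-aa arrays. Both Mot1-aa values lay below both WT-aa values, but the 2 Mot1-aa cultures differed by more than the strains did, and the difference of -0.70 (SE 0.56) did not pass (limma adjusted p = 0.642). The Mot1-aa arrays read 0.40 and -2.31 at 10 min, -0.62 and -0.18 at 20 min and 0.61 and -0.09 at 30 min, so that the order of the 2 cultures was not the same at every time. The position of the probe relative to the tag is not known here. SEN54 (YPL083C), a subunit of the tRNA splicing endonuclease, is the next gene downstream of MOT1 on the same strand. It read -0.52 and -0.26 in Mot1-aa and -0.10 and -0.01 in WT-aa. SEN54 was lower by a log2 difference of -0.33 (SE 0.06, limma adjusted p = 0.017), and the arrays did not overlap. The call was lost without Mot1-aa culture 1 or either WT-aa array of 0 min, with an adjusted p of up to 0.198. At 10 min SEN54 was again lower in Mot1-aa, by -0.37 (limma adjusted p = 0.0038). The other 5 genes within 3 places of MOT1 (SEC16, BRO1, RPS9A, YPL080C and RPL21B) had differences from -0.13 to 0.11 and none passed (limma; 0 at an unadjusted p under 0.05).

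**Figure D2:**
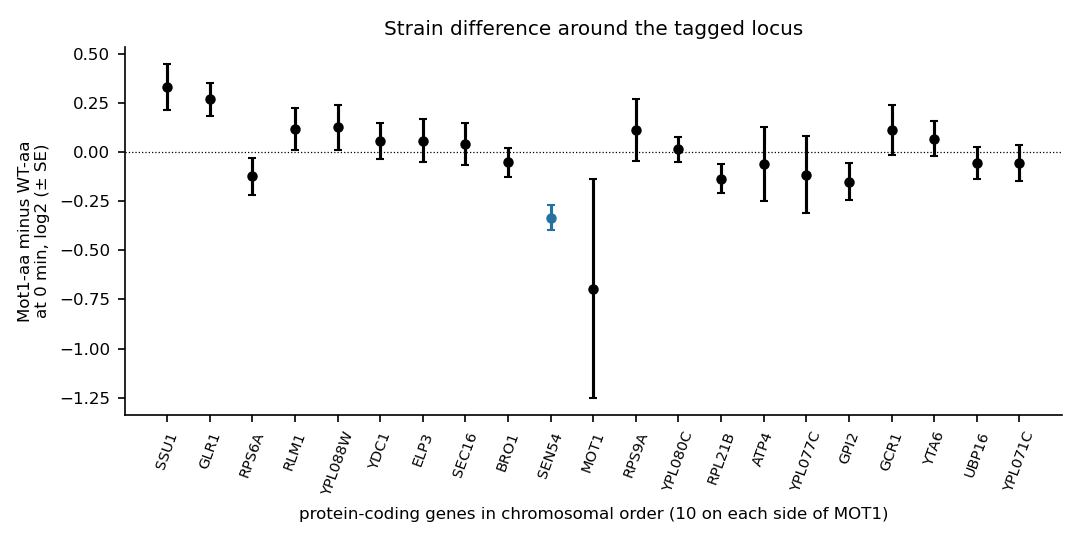
Log2 difference between Mot1-aa and WT-aa at 0 min, with its standard error, for MOT1 and the 10 protein-coding genes on each side, in chromosomal order and not to scale. SEN54 (blue) is the neighbour that passed, at -0.33, and MOT1 has the widest error, 0.56.

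The largest differences were higher values in the tagged strain. WSC4, an endoplasmic reticulum membrane protein named for its kinship to the cell wall stress sensors, read 1.34 and 1.27 in Mot1-aa and -0.42 and -0.27 in WT-aa. Its difference was 1.65 (SE 0.18), a 3.13-fold ratio (limma adjusted p = 5.7e-04). BNA4, kynurenine 3-monooxygenase of the pathway that makes NAD from tryptophan, read 1.46 and 1.51 against -0.05 and -0.11. The cultures of each strain lay close together for BNA4 and the difference was 1.57 (SE 0.09, 2.96-fold, limma adjusted p = 2.8e-05). YLR112W, an open reading frame with no gene name in the annotation used, read 1.39 and 1.35 against -0.04 and 0.02, a difference of 1.37 (SE 0.11, limma adjusted p = 1.0e-04). PRY1, a secreted sterol-binding protein, read 1.31 and 1.10 against -0.38 and 0.11, and RPI1, a regulator linked to Ras signalling and the cell wall, read 1.05 and 0.51 against -0.48 and -0.60. These differences were 1.34 (SE 0.15) for PRY1 and 1.32 (SE 0.11) for RPI1, and the strains did not overlap in any of the 5 genes. All 5 passed whichever array was left out.

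**Figure D3:**
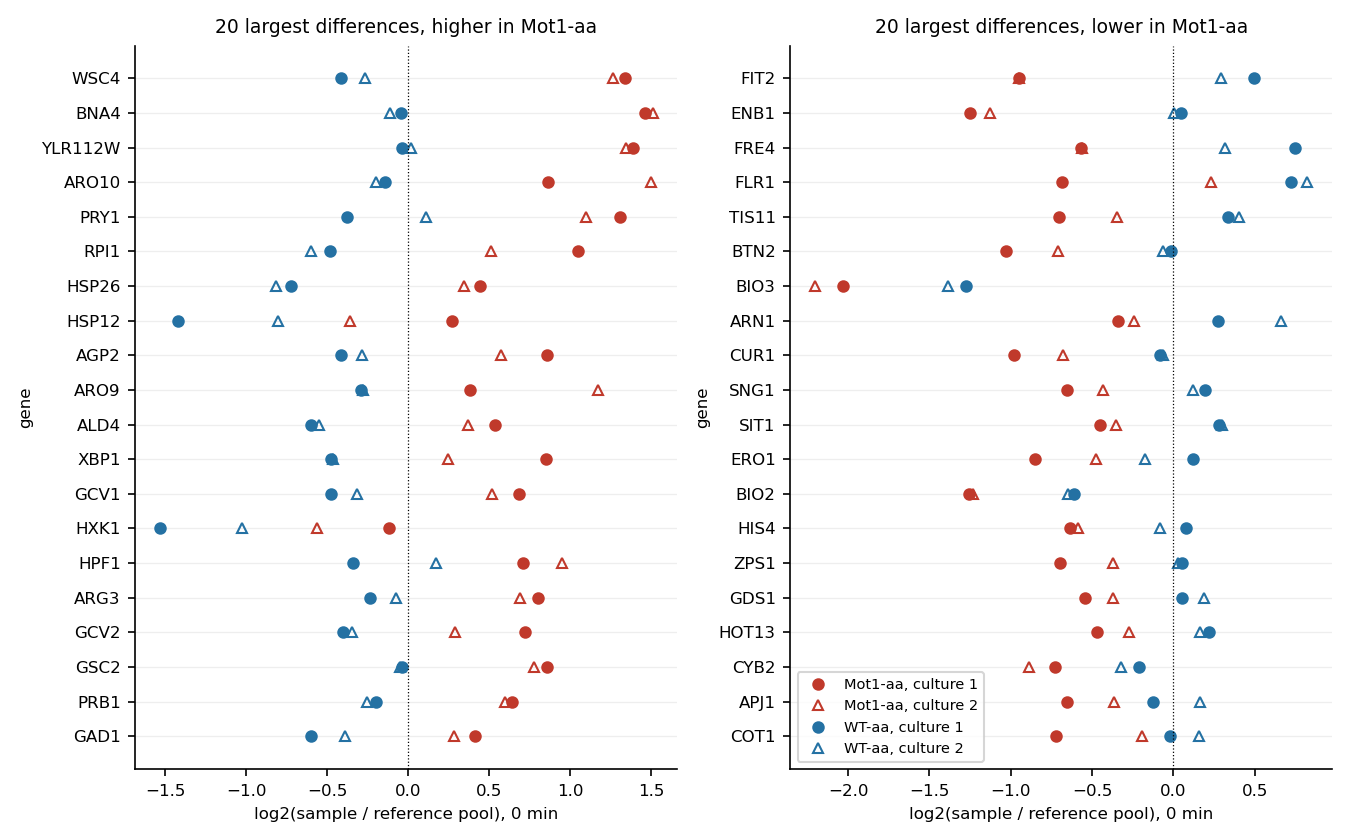
Log2(sample/reference pool) on each of the 4 arrays of 0 min for the 20 genes with the largest differences in each direction (Mot1-aa red, WT-aa blue, circles culture 1, triangles culture 2). In each of these 40 genes both Mot1-aa arrays lie on the same side of both WT-aa arrays; WSC4 at 1.65 and FIT2 at -1.34 are the widest gaps.

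Genes of amino acid use were among the largest. ARO10, the decarboxylase that turns transaminated aromatic amino acids into aldehydes, read 0.86 and 1.50 in Mot1-aa against -0.14 and -0.20 in WT-aa. ARO9, the aromatic aminotransferase of the same pathway, read 0.38 and 1.17 against -0.29 and -0.28. In both genes the tagged cultures lay above the parent's but apart from each other, and the differences were 1.35 (SE 0.16) for ARO10 and 1.06 (SE 0.17) for ARO9. ARO9 missed the threshold without WT-aa culture 2 (limma adjusted p = 0.059). These were the 2 genes called among 17 measured in the list for aromatic and branched amino acid breakdown, beside 2.69% of all genes. The median difference of that list was -0.0011, beside -0.01 over all genes. ARO80, the activator of both genes, read 0.04 and -0.06 against 0.04 and -0.14 and did not pass. Of 16 amino acid permeases, 3 were higher and 0 were lower, beside 1.84% and 0.847% of all genes, with a list median of 0.14. AGP2, a plasma membrane protein of carnitine and polyamine uptake, was higher by 1.07 (SE 0.08). AGP1, a broad amino acid permease, was higher by 0.57 (SE 0.07), and TAT1, a tyrosine and tryptophan permease, by 0.57 (SE 0.09). TAT1 missed without Mot1-aa culture 2 or WT-aa culture 2 (adjusted p up to 0.066). ARG3, ornithine carbamoyltransferase of arginine synthesis, read 0.80 and 0.69 against -0.23 and -0.08. It was the sole call among 11 arginine synthesis genes, at 0.90 (SE 0.12, limma adjusted p = 0.0024), while the list median was -0.14. GCV1 and GCV2, subunits of the mitochondrial glycine cleavage complex that feeds one-carbon metabolism, were higher by 1.00 (SE 0.09) and 0.88 (SE 0.12). With AAH1, adenine deaminase, at 0.46 (SE 0.06), they were the 3 called of 25 purine and one-carbon genes, beside 2.69% of all genes. The median of that list was 0.09. Without Mot1-aa culture 1, GCV2 had an adjusted p of 0.065.

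General stress genes, the targets of the paired activators Msn2 and Msn4 that yeast makes when growth slows or conditions worsen, formed the list with the most calls. Of 44 measured, 12 were higher and 0 were lower, beside 1.84% and 0.847% of all genes. The list median was 0.31, with 35 members above 0, beside 2567 of all 5315 genes. HSP26, a small heat shock protein, read 0.44 and 0.35 in Mot1-aa and -0.72 and -0.81 in WT-aa. HSP12, a membrane-stabilising stress protein, read 0.27 and -0.36 against -1.42 and -0.80. HXK1, a hexokinase, read -0.12 and -0.57 against -1.53 and -1.02. The strains did not overlap in any of the 3, but both cultures of each strain were scattered for HSP12 and HXK1. The differences were 1.16 (SE 0.10) for HSP26, 1.07 (SE 0.24) for HSP12 and 0.94 (SE 0.19) for HXK1. XBP1, a repressor made under stress, was higher by 1.02 (SE 0.18) and GAD1, glutamate decarboxylase, by 0.84 (SE 0.15). The other 7 were glycogen and trehalose enzymes and small stress proteins, at 0.45 to 0.77: GPH1, GSY1, GLC3 and NTH1 of glycogen and trehalose turnover, SOL4 of the pentose phosphate pathway, the wall protein SPI1 and the ATP synthase factor STF2. MSN4 itself is in no list and is outside the rule by which genes were named. It read 0.41 and 0.22 against -0.32 and -0.34 and was higher by 0.65 (SE 0.07, limma adjusted p = 5.5e-04).

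Only HSP26 of the 12 passed whichever array was left out. The other 11 each missed the threshold without Mot1-aa culture 1 and also without WT-aa culture 1, with adjusted p-values of up to 0.399, reached by HSP12. Against the reference pool, whose make-up is not settled, 10 of the 12 were below the pool in WT-aa, as were 1.92% of all genes, and 4 were above it in Mot1-aa, as were 10.4% of all genes. These comparisons share arrays with the strain difference and are given as a description. HSP12 stood at -1.11 from the pool in WT-aa (limma adjusted p = 0.0078) and at -0.05 in Mot1-aa (limma adjusted p = 0.879), and GPH1 at -0.79 and -0.02. The median of the whole list was -0.52 and -0.35 on the WT-aa arrays and -0.10 and -0.10 on the Mot1-aa arrays, so that the parent's arrays lay further from the pool, whichever strains the pool holds. WT-aa at 0 min differed from the pool at 134 genes in all (2.52% of genes), of which 102 were lower, but at 25 genes without its culture 1, 49 without its culture 2, 79 without either WT-aa 20 min array and 370 without either Mot1-aa 10 min array. HSP26, XBP1, GAD1 and NTH1 also lay above the pool in Mot1-aa, at 0.39, 0.55, 0.35 and 0.21.

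**Figure D4:**
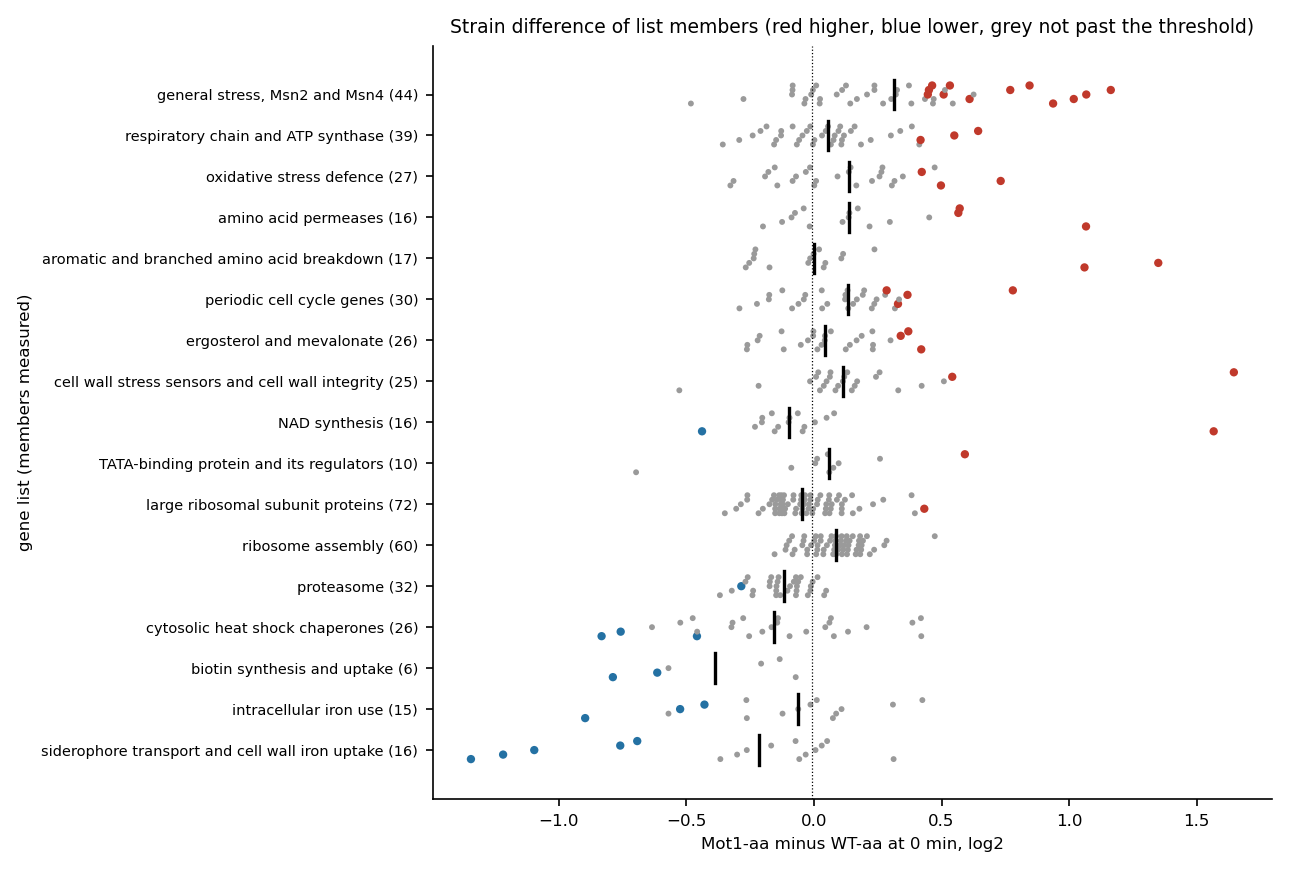
Log2 difference between Mot1-aa and WT-aa at 0 min of each measured member of 17 gene lists (points; red passed as higher, blue passed as lower, grey did not pass), with each list's median (bar) and the median of all genes (dotted line). General stress genes hold 12 red points, and the siderophore and cell wall iron list holds 5 blue points down to -1.34.

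A few genes in the lists for acetate metabolism, respiration, redox defence and glucose sensing were higher. ALD4, the mitochondrial aldehyde dehydrogenase, read 0.54 and 0.37 in Mot1-aa against -0.60 and -0.55 in WT-aa, and its difference of 1.03 (SE 0.08, limma adjusted p = 8.0e-05) passed whichever array was left out. Of 39 respiratory chain and ATP synthase genes, 3 were higher and 0 were lower, beside 1.84% and 0.847% of all genes, with a list median of 0.06: COX5B, the low-oxygen form of a cytochrome oxidase subunit, by 0.64 (SE 0.09), CYC1, cytochrome c, by 0.55 (SE 0.09) and QCR2 of complex III by 0.42 (SE 0.06). Of 27 genes of oxidative stress defence, 3 were higher and 0 were lower, beside 1.84% and 0.847% of all genes, with a list median of 0.14. OYE3, an NADPH dehydrogenase, was higher by 0.73 (SE 0.12), the mitochondrial superoxide dismutase SOD2 by 0.50 (SE 0.08) and cytochrome c peroxidase CCP1 by 0.42 (SE 0.10). CYC1, SOD2, OYE3 and CCP1 missed without Mot1-aa culture 1, among other arrays, with adjusted p-values of up to 0.359. In the list of hexose transport and glucose sensing, 2 of 22 measured were higher and 0 were lower, beside 1.84% and 0.847% of all genes. The list median was 0.05, with 16 of 22 above 0. MTH1, a corepressor of hexose transporter genes, was higher by 0.65 (SE 0.10) and MIG2, a repressor active in high glucose, by 0.51 (SE 0.07). Both missed without Mot1-aa culture 1 (adjusted p up to 0.068).

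In the list of the TATA-binding protein and its regulators, which includes MOT1 itself, 1 of 10 genes passed, beside 2.69% of all genes. NCB2, the beta subunit of negative cofactor 2, which binds the TATA-binding protein on promoters, read 0.64 and 0.49 in Mot1-aa against 0.01 and -0.06 in WT-aa. It was higher by 0.59 (SE 0.09, limma adjusted p = 0.0062), missed without Mot1-aa culture 1 or WT-aa culture 2 (adjusted p up to 0.101), and was higher again at 10 min, by 0.77 (limma adjusted p = 5.5e-04). BUR6, the alpha subunit of the same complex, was not well above background on any of the 4 arrays, so that its difference of 0.06 is not informative. SPT15, the TATA-binding protein, read -0.35 and 0.35 against -0.15 and 0.14. Its difference was 0.01 (SE 0.11) and the strains overlapped. The subunits of TFIIA, TOA1 and TOA2, differed by 0.05 and -0.09, TFIIB (SUA7) by 0.26, and BRF1, BDP1 and RRN3, factors of RNA polymerases III and I, by 0.01 to 0.10, and none of them passed. None of 27 TFIID and SAGA subunits passed (limma; 3 at an unadjusted p under 0.05), and their median was -0.01. BDF2, a bromodomain protein that can associate with TFIID, was named after its values were seen. It read 1.00 and 0.50 against 0.18 and -0.20, was higher by 0.76 (SE 0.07, limma adjusted p = 2.5e-04) and passed whichever array was left out.

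Some of the other higher calls fell in the lists for the cell wall, sterol synthesis and the cell cycle. Of 25 cell wall stress and integrity genes, WSC4 and the mannoprotein CWP2, at 0.54 (SE 0.07), were higher, beside 1.84% of all genes. A difference above 0 was found for 22 of the 25, beside 2567 of all 5315 genes. GSC2, the stress form of the glucan synthase subunit, was higher by 0.86 (SE 0.13). That gene is in the cell wall list under its other name, FKS2, which was not matched to the array. It is therefore not among the 25 counted. HPF1, a wall mannoprotein, and PRB1, the vacuolar protease B, are in no list and were higher by 0.92 (SE 0.17) and 0.85 (SE 0.07). Of 26 ergosterol genes, 3 were higher and 0 were lower, beside 1.84% and 0.847% of all genes. The median of that list was 0.04, with 16 of 26 above 0. The 3 were ERG24, ERG1 and NCP1, at 0.34 to 0.42. Of 30 periodic cell cycle genes, 4 were higher and 0 were lower, beside 1.84% and 0.847% of all genes. CLB1, a mitotic cyclin, read 0.52 and 0.49 against -0.41 and -0.14 and led them at 0.78 (SE 0.10), and ASH1, PCL1 and CDC6 were higher by 0.29 to 0.37. CLB1 and CWP2 passed whichever array was left out, whereas the 3 ergosterol genes and ASH1, PCL1 and CDC6 missed without Mot1-aa culture 1 and without either WT-aa array of 0 min, with adjusted p-values of up to 0.428. The drug and polyamine exporters TPO3 and QDR2, at 0.70 (SE 0.10) and 0.46 (SE 0.11), the copper transporter CTR1 at 0.36 (SE 0.07), mitochondrial malate dehydrogenase MDH1 at 0.29 (SE 0.06) and RPL22B at 0.43 (SE 0.09) complete the higher genes of the lists. RPL22B was the sole call among 72 large subunit ribosomal proteins, whose median was -0.05. HPF1, QDR2, CTR1, MDH1 and RPL22B missed without Mot1-aa culture 1, among other arrays, and GSC2 missed without that array only.

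The lowest genes in the tagged strain were those of iron uptake. Yeast that senses little iron raises the Aft1 regulon, which holds siderophore transporters, cell wall proteins that retain siderophores, and reductases. Of 16 such genes measured, 5 were lower and 0 were higher, beside 0.847% lower among all genes, and the list median was -0.21. FIT2, a mannoprotein of siderophore retention, read -0.95 and -0.95 in Mot1-aa and 0.49 and 0.29 in WT-aa. ENB1, the enterobactin transporter, read -1.25 and -1.13 against 0.05 and 0.01. FRE4, a reductase for siderophore iron, read -0.56 and -0.56 against 0.75 and 0.32. The strains stood well apart in all 3, and the differences were -1.34 (SE 0.09) for FIT2, -1.22 (SE 0.08) for ENB1 and -1.09 (SE 0.12) for FRE4, with limma adjusted p-values of 5.5e-05, 5.5e-05 and 5.7e-04. SIT1 and ARN1, the ferrioxamine and ferrichrome transporters, were lower by -0.69 (SE 0.08) and -0.76 (SE 0.12). ARN1 alone of the 5 missed the threshold with an array left out (Mot1-aa culture 1, Mot1-aa culture 2 or WT-aa culture 2, adjusted p up to 0.074).

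The other 11 genes of this list did not pass at 0 min. An unadjusted p under 0.05 was found for 8 of the 16, beside 778 of all 5315 genes (limma). A difference above 0 was found for 4 of the 16, beside 2567 of all 5315 genes. FIT1 and FIT3, which like FIT2 encode siderophore-retaining mannoproteins, had differences of -0.03 (SE 0.10) and -0.17 (SE 0.11). FET3 and FTR1, the oxidase and permease of reductive uptake, differed by -0.07 (SE 0.17) and -0.26 (SE 0.16), and FRE1, FRE2, FRE3 and FRE5 by -0.06 to 0.05. None of these passed, and a difference the size of that of FIT2 lies far outside their errors. ARN2, a further siderophore transporter, had a difference of -0.37 (SE 0.15), and FET4, a low-affinity iron transporter, one of 0.31 (SE 0.10). At 10 min, 6 members were lower, FRE6 among them, beside 2.28% of all genes. FET4 was higher at that time, at 0.64 (limma adjusted p = 0.0023). FRE6, a vacuolar reductase, read -0.05 and -0.13 against 0.30 and 0.13 and did not pass at 0 min at -0.30 (limma adjusted p = 0.066). Among 15 genes of iron use inside the cell, 3 were lower and 0 were higher, beside 0.847% and 1.84% of all genes. The median of that list was only -0.06, its members ranged from -0.90 to 0.43, and 6 of the 15 were above 0. At 10 min, 2 of the 15 were higher and 0 were lower, beside 7.39% and 2.28% of all genes. TIS11, an RNA-binding protein that speeds the decay of mRNAs of iron-using proteins, read -0.70 and -0.35 against 0.34 and 0.40 and was lower by -0.90 (SE 0.12, limma adjusted p = 0.0030). Its relative CTH1 and the vacuolar zinc and cobalt transporter COT1 were lower by -0.43 (SE 0.08) and -0.52 (SE 0.11). CTH1 and COT1 missed without Mot1-aa culture 1, among other arrays, and TIS11 missed without that array only. Against the pool, 4 of the 5 uptake genes were above it in WT-aa, as were 0.602% of all genes, ENB1 being the exception at 0.03, and all 5 were below it in Mot1-aa, as were 10.5% of all genes.

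Some chaperones and folding factors were also lower. Of 26 chaperones of the heat shock response, 3 were lower and 0 were higher, beside 0.847% and 1.84% of all genes, with a list median of -0.15. BTN2 and its relative CUR1, which sort misfolded proteins, read -1.03 and -0.71 and -0.98 and -0.68 in Mot1-aa, against -0.01 and -0.06 and -0.08 and -0.06 in WT-aa. They were lower by -0.83 (SE 0.16) and -0.76 (SE 0.11), and the mitochondrial J-protein MDJ1 by -0.46 (SE 0.10). All 3 missed without Mot1-aa culture 1 or WT-aa culture 1 (adjusted p up to 0.412). The Hsp90 cochaperones CPR6 and AHA1 had differences of -0.63 (SE 0.19) and -0.52 (SE 0.20) that did not pass. The members as a whole ranged from -0.83 to 0.42, with 9 of 26 above 0, beside 2567 of all 5315 genes. At 10 min the list had 3 members higher (HSP30, SSE2 and SSA4) and 1 lower (CUR1), beside 7.39% and 2.28% of all genes. Outside the lists, APJ1, a J-protein, was lower by -0.53 (SE 0.08), and HCH1, SSC1, CPR1 and SGT2, further chaperones or cochaperones named after their values were seen, were lower by -0.37 to -0.45. Of 20 genes of endoplasmic reticulum folding, ERO1, the thiol oxidase that drives disulfide formation, was lower by -0.64 (SE 0.13). KAR2, the Hsp70 of that compartment, had a difference of -0.73 (SE 0.25) that did not pass (limma adjusted p = 0.200). PRE4 was the sole call among 32 proteasome subunits, at -0.28 (SE 0.07). Of the 32, 3 had a difference above 0, beside 2567 of all 5315 genes, and the list median was -0.12. PRE4, ERO1, APJ1, HCH1, SSC1, CPR1 and SGT2 missed without Mot1-aa culture 1, among other arrays (adjusted p up to 0.362).

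Of 6 genes of biotin synthesis and uptake, 2 were lower in the tagged strain and 0 were higher, beside 0.847% and 1.84% of all genes. BIO3, an aminotransferase of the pathway, read -2.03 and -2.20 in Mot1-aa and -1.27 and -1.38 in WT-aa. BIO2, biotin synthase, read -1.25 and -1.23 against -0.61 and -0.65. The cultures of each strain lay close together, and the differences of -0.79 (SE 0.08) for BIO3 and -0.61 (SE 0.07) for BIO2 passed whichever array was left out. The list median was -0.39, and all 6 members had a difference below 0, whereas 2567 of all 5315 genes had one above 0. The importer BIO5 read -2.01 and -2.32 against -1.71 and -1.47 without passing (limma adjusted p = 0.064), and BIO4 and VHT1 differed by -0.13 (SE 0.11) and -0.21 (SE 0.12). In the NAD synthesis list the 2 calls went opposite ways: BNA4 was higher, and BNA1, the dioxygenase that acts later in the pathway, was lower by -0.44 (SE 0.09). BNA1 missed without Mot1-aa culture 2 or either WT-aa array of 0 min, among other arrays (adjusted p up to 0.215). The other measured members lay between -0.23 and 0.08 and did not pass.

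Further lower genes were the sole lower calls of their lists or, like SNG1, HOT13 and GDS1, in no list. Of 26 multidrug genes, FLR1 was lower, whereas TPO3 and QDR2 were higher. Of 15 zinc and copper genes, ZPS1 was lower and CTR1 higher. Of 28 genes of ethanol, acetate and gluconeogenesis, CYB2 was lower and ALD4 higher. Of 21 mating genes, KAR4 was the sole call. Over all genes, 0.847% were lower and 1.84% higher. FLR1, a multidrug exporter, read -0.69 and 0.23 in Mot1-aa against 0.72 and 0.82 in WT-aa. The tagged cultures were far apart and still below the parent's, and the difference was -1.001 (SE 0.17, limma adjusted p = 0.0090), lost without Mot1-aa culture 1 or WT-aa culture 1 (up to 0.110). SNG1, which gives resistance to nitrosoguanidine, was lower by -0.70 (SE 0.08) and passed whichever array was left out. HIS4 of histidine synthesis, at -0.61 (SE 0.13), was the sole call among 40 Gcn4-controlled biosynthetic genes, whose median was -0.09. CYB2, the mitochondrial lactate dehydrogenase, was lower by -0.54 (SE 0.11), the zinc-regulated ZPS1 by -0.58 (SE 0.10), HOT13, a protein of the mitochondrial intermembrane space, by -0.56 (SE 0.10), GDS1 by -0.58 (SE 0.09) and the mating regulator KAR4 by -0.37 (SE 0.06). HIS4 and these last 5 genes all missed without Mot1-aa culture 1, among other arrays (adjusted p up to 0.285).

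Several groups showed no call. None of 53 small subunit ribosomal proteins or 60 ribosome assembly genes passed (limma; 0 and 4 at an unadjusted p under 0.05), with list medians of -0.06 and 0.09. None of the 8 measured loci used to build the strains passed (limma; 0 at an unadjusted p under 0.05): TOR1 differed by 0.13, RPL13A by -0.12, MET17 (the MET15 locus) by -0.15, and HIS3, LEU2, LYS2 and URA3 by -0.13 to 0.06. LEU2 and URA3 were above the negative spots on only 2 and 3 of the 4 arrays. The mating type markers had no call at 0 min. The alpha-specific STE3, SAG1, MF(ALPHA)1 and MF(ALPHA)2 differed by 0.25, -0.19, 0.15 and -0.44, and the 6 a-specific genes by -0.22 to -0.02. None passed in limma (2 and 1 at an unadjusted p under 0.05), and at 10 min MF(ALPHA)2 was lower, by -0.59 (limma adjusted p = 0.036). Medians per chromosome lay between -0.02 and 0.01, so that no whole chromosome was shifted.

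The position of the called genes against the pool was also counted. Mot1-aa at 0 min differed from the pool at 1111 genes (20.9%). Of the 98 higher genes, 86 were above the pool in Mot1-aa, beside 10.4% of all genes, and 26 were below it in WT-aa, beside 1.92%. Of the 45 lower genes, 44 were below it in Mot1-aa, beside 10.5% of all genes, and 5 were above it in WT-aa, beside 0.602%. The called genes were picked by the strain difference on these same arrays, which favours such positions by construction, so the counts are a description only. The count against the pool rested on single arrays: 153 genes passed without Mot1-aa culture 1, 571 without culture 2 and 1950 without either Mot1-aa 10 min array.

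The arrays of 10 min give the same strain contrast on other arrays, with 10 min of rapamycin added and the same reference pool. The labels do not say whether the cultures of 0 and 10 min with the same number are one culture, and both contrasts use the same estimate of each gene's spread, so that the values of 10 min are not an independent repeat. There 514 genes differed (9.67%), 393 higher in Mot1-aa (7.39%) and 121 lower (2.28%). The 98 higher genes of 0 min included 96 that were called higher again in this contrast, which is 98.0% of the first list and 24.4% of the second. ASH1 and HSP12, with limma adjusted p-values of 0.181 and 0.0504, were the others. The 45 lower genes included 32 called lower again, which is 71.1% of the first list and 26.4% of the second, and all 45 kept their sign. The 10 min arrays of the strains did not overlap, in the direction of 0 min, for 96 of the 98 (17.7% of all genes lay above) and 43 of the 45 (18.2% of all genes lay below). WSC4 read a difference of 1.99 at 10 min, BNA4 1.92, FIT2 -1.23 and ENB1 -1.18. TIS11 differed by -0.22 and BIO2 by -0.11 at 10 min and neither passed there. In the test of the change itself from 0 to 10 min, limma called 0 genes, with 225 at an unadjusted p under 0.05 and a lowest adjusted p of 0.111, which belonged to YHR140W, at 0.65 and 1.30. The adjusted p of the change was 0.920 for TIS11 and 0.646 for BIO2. The 2 Mot1-aa arrays of 10 min disagreed with each other, and both had a weight of only 0.148 in the fit with array weights. The number of genes called at 10 min depended strongly on single arrays of either strain.

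**Figure D5:**
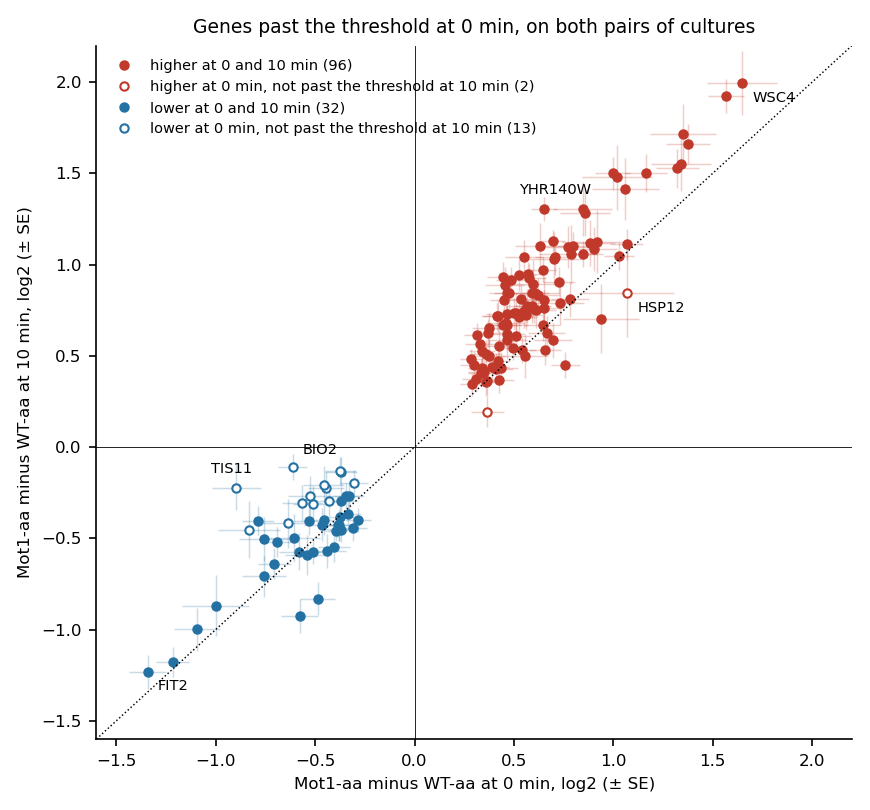
Log2 difference between Mot1-aa and WT-aa at 0 min (horizontal) and at 10 min (vertical), with standard errors, for the 143 genes past the threshold at 0 min. The 0 and 10 min values come from different arrays; all 143 genes keep their sign, and filled points (96 higher, 32 lower) passed at both times.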

How the data were processed

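The 16 arrays are 2-colour scanner files with 15552 spots, of which 12776 are gene spots (6388 probes, 2 spots each). The deposited scanner files give each spot's intensity in both channels with its local background, per the file headers. The deposited series table gives log2 ratios made by the authors. Aligner and genome build are not given in the sources used here. A gene name was available for 5326 probes (5315 genes, with names and gene order from the R64 annotation); 1062 probes had none.

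Intensities were background-corrected (normexp, offset 50), loess-normalised within each array on the gene spots, averaged over duplicate spots and turned to sample over reference. limma 3.58.1 in R 4.3.3 fitted 8 groups and dye orientation, which is also the culture number and so the replicate block, on all 16 arrays, with 7 residual degrees of freedom and Benjamini-Hochberg adjustment over all 5315 genes. Same-numbered cultures deviated together across genes in 25 of 28 pairs of groups (median r = 0.62; r = 0.33 between the 2 strains at 0 min), but the number also marks the dyes, so this does not show that they are paired. Nothing says that the 2 cultures of a group came from separate clones, and p-values measure only the spread between arrays. Duplicate spots had an SD of 0.03 to 0.05 on the log2 scale. On simulated data for the 0 min contrast over 5315 genes, 71 of 100 genes changed by 0.5 and 97 of 100 changed by 1 on the log2 scale were called, with 9 false calls. Those figures hold for the simulated noise only, and whether they carry over to the real arrays was not tested. In the fit with array weights, the real arrays were unequal, from 0.148 (Mot1-aa 10 min) to 3.299 (WT-aa 20 min). The weights at 0 min were 0.682 for Mot1-aa and 0.605 for WT-aa.

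Members, gene lists (45) and tests were chosen with earlier results of these data known. The genes named are the 20 with the largest difference in each direction among those called, every called gene in a list, all genes of the lists for strain construction, mating type and TATA-binding protein regulators, and the 3 genes on each side of MOT1; others are said to be outside this rule. Lists are described by counts and medians without a test. Promoter sequences and motifs were not analysed here. Alternatives tried were median centring, the deposited log2 ratios, no background correction, quantile scaling of average intensity, external control scaling, no dye term, array weights, the 4 arrays alone, a filter at the 99th percentile of the negative spots, and leaving out each array.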

Additional observations from a re-analysis of the deposited data

Results flagged for a closer look

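Of 1062 probes with no gene name in the tables used, 15 differed between the strains at 0 min (1.41%, limma), 10 higher and 5 lower in Mot1-aa; they belong to no comparison above. A few called genes had arrays that did not overlap in one direction at 0 min and in the opposite direction at a later time. TIS11, lower at 0 min by -0.90, read 0.53 and 0.78 in Mot1-aa and -0.25 and -0.12 in WT-aa at 30 min, a mean difference of 0.84. NRG2, lower at 0 min by -0.51, read 0.38 and 0.23 in Mot1-aa and 0.17 and -0.09 in WT-aa at 20 min, a mean difference of 0.26. YDR124W, lower at 0 min by -0.46, read 0.13 and 0.23 against 0.11 and 0.10 at 30 min, a mean difference of 0.076. These 3 changes of direction were not tested.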

How the results depend on the processing

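Of the genes called at 0 min, 39 of the 98 higher and 10 of the 45 lower passed every alternative setting. External scaling, the 4 arrays alone and the fits with an array left out are not counted there. HPF1 and FLR1, for example, missed without the dye term (limma adjusted p = 0.338 and 0.258). The count of 143 genes at 0 min stayed within 1.5 times under median centring, the deposited log2 ratios, no background correction, array weights and the filter on dim genes, and quantile scaling of average intensity leaves the ratios as they were by construction. It was 55 without the dye term, which is the replicate block, 4 under external control scaling, of which 0 were higher, 0 in the 4 arrays alone, and 48 to 425 with single arrays left out. The count of 514 at 10 min became 92 with array weights, 224 without the replicate block, 11 under external scaling and 177 to 1945 with arrays left out. Against the pool, the 1111 genes of Mot1-aa became 464 without the block, 2827 under external scaling and 153 to 1950 with arrays left out, and the 134 of WT-aa became 68 under median centring, 44 without the block, 7 under external scaling and 25 to 370 with arrays left out. The change from 0 to 10 min called 0 to 18 genes with arrays left out. No alternative other than external scaling turned the direction of a named gene that had been called. Under external scaling 23 did, to these values: NCB2 -0.075, SPI1 -0.077, TAT1 -0.10, CYC1 -0.12, CWP2 -0.12, MIG2 -0.16, NTH1 -0.16, QDR2 -0.17, GLC3 -0.17, SOD2 -0.18, ERG24 -0.19, AAH1 -0.21, STF2 -0.21, RPL22B -0.23, CCP1 -0.25, QCR2 -0.25, CTR1 -0.25, CDC6 -0.27, ERG1 -0.29, ASH1 -0.30, MDH1 -0.33, NCP1 -0.33 and PCL1 -0.34, all with the median gene at -0.61. The causes of these changes were not tested. With 2 arrays a group, the smallest difference called was 0.28 on the log2 scale, and sample signal over background was lowest in Mot1-aa culture 1, at 11.6.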

Other observations

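Some genes had large differences that did not pass and that no comparison above describes. CAR2, ornithine transaminase of arginine breakdown, read 0.60 and 1.05 in Mot1-aa and -0.10 and -0.10 in WT-aa, a difference of 0.92 (SE 0.24, limma adjusted p = 0.085), and passed at 10 min at 1.43 (limma adjusted p = 0.0038). PHM8 and PHM7, genes of phosphate limitation, had differences of 0.65 (SE 0.19) and 0.66 (SE 0.19) at 0 min and passed at 10 min at 1.28 and 0.77. PHO84, the phosphate transporter, read -1.04 and 1.52 in Mot1-aa and 0.66 and 1.26 in WT-aa, so that its 2 Mot1-aa cultures lay on either side of the parent. All 16 seripauperins measured had a difference above 0 at 0 min, beside 2567 of all 5315 genes, with a median of 0.09. None passed in limma (1 at an unadjusted p under 0.05). At 10 min, 12 of the seripauperins passed as higher, beside 7.39% of all genes, with a median of 0.39. Their sequences are near-identical, so the probes may not be independent.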
